A study of Mus musculus with 2 samples.

Results

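The cells described here were macrophages of the calvarial defect that made the complement component C1q and carried little Mrc1, the transcript of the mannose receptor CD206. They were chosen by their own measured UMI counts (UMIs are molecular tags that count each captured transcript once). A cell with 500 to 140000 UMIs, 200 to 9500 genes and at most 15% mitochondrial UMIs was kept. A kept cell was a member if it held at least 2 UMIs of Csf1r, at least 20 of C1qa, C1qb and C1qc together, and fewer than 15 of Mrc1. Further limits were also applied, among them fewer than 5 UMIs of the osteoclast genes Ocstamp, Dcstamp and Atp6v0d2 together, with S100a8 and S100a9 under 3% of its UMIs and Col1a1, Col1a2 and Col3a1 under 1%. This selected 660 of 17129 kept cells, 222 of 9036 after GA and 438 of 8093 after vehicle. Since these counts chose the cells, levels of the genes of the rule are given as a description only.

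Bone was taken from mice labelled C57BL/6 and named C57BL/6J in the paper. They were described as males of 2 months, and the bone was taken 7 days after a circular defect of the frontal bone. One library came from mice injected intraperitoneally with gambogic amide (GA), a small molecule, at a labelled 1.2 mg/kg in 10% DMSO. The study's methods state a different dose, and which one these mice received is not known here. The other came from mice given 100 µL of 10% DMSO, and in both groups injections began 24 h before injury and were daily for 1 week. Each library pooled 5 injured mice whose cells cannot be assigned to a mouse, and uninjured bone was not analysed here. With 1 library per condition no difference between conditions could be tested, and every interval below is a 95% interval for counting error alone, which holds neither mouse nor library variation. The GA library held 9322 barcodes and 182949385 UMIs and the control library 8718 barcodes and 214993030 UMIs, and a kept cell held 11267 UMIs in GA and 17499 in control at the median. Only 23 barcode sequences occurred in both libraries; 1 of them was a member in control and 0 in GA.

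Macrophages of a healing bone come from blood monocytes that enter after injury and from cells that already lived in marrow, periosteum and the dura beneath the skull. C1q, the first component of the classical complement pathway, is made mainly by mature tissue macrophages and also tags dying cells for uptake. The mannose receptor is high on many resident and perivascular macrophages and low on microglia and on cells with much MHC class II, the molecules that present peptide antigens to helper T cells.

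The label of macrophage was checked with genes that the rule did not use. All 11 genes of a macrophage identity list were detected in both libraries, and 9 of the 11 were at least 2-fold higher in members than in Ly6c2 monocytes of the same library, in both libraries. Across all genes compared with these monocytes, 7.62% were higher and 5.4% lower by that measure. The monocytes were chosen for C1q under the limit that members had to reach, so the contrast is not independent of the rule. Adgre1, which encodes F4/80, stood at 473 CPM in GA members and 397 in control members, where CPM are the UMIs of a gene per 1000000 UMIs of the summed cells. Trem2, a lipid receptor, stood at 861 and 1085 CPM. Apoe, the apolipoprotein that carries cholesterol out of cells, was the most abundant transcript of the members, at 20338 CPM in GA and 37050 in control. The ferritin chains Fth1 and Ftl1, the lysozyme gene Lyz2, Tmsb4x and the lysosomal proteases Ctsb and Ctsd were also among the 20 most abundant genes. Each transcript is counted once at its 3′ end in this assay, so these levels are not divided by gene length.

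The genes of the rule lie together or apart as follows on GRCm38. C1qa (ENSMUSG00000036887, chr4:136895917-136898803), C1qc (ENSMUSG00000036896, chr4:136889804-136893065) and C1qb (ENSMUSG00000036905, chr4:136880129-136886187) are neighbours on the minus strand, while Mrc1 (ENSMUSG00000026712) occupies chr2:14229392-14332057 on the plus strand. Members held a median of 149 C1q UMIs in GA and 167 in control, and a median of 6 and 4 Mrc1 UMIs. No Mrc1 UMI was found in 50 GA members (22.5%) and in 101 control members (23.1%). Members of the 2 libraries were of similar depth, with medians of 19588.5 and 20410 UMIs and of 4261.5 and 4210 genes per cell.

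Markers of most other cell types were low in the summed members. The 4 genes of the T and NK cell list summed to 1.49 CPM in GA and 6.34 in control, with Trbc2 the most abundant. The 7 dendritic cell genes summed to 10.8 and 29.4, led by Siglech. The 4 mast cell and basophil genes summed to 0.425 and 0.859, led by Mcpt8, and 3 of them were at 0 in GA. The 5 osteoclast genes summed to 122 and 165, led by Acp5, and 2 of them were at 0 in each library. The 6 erythroid genes summed to 31.0 and 199, led by Hbb-bs, with 1 at 0 in each library, and the 3 with enough UMIs were all past 2-fold lower in GA, beside 0.565% of all genes, and 87.9% of the Hbb-bs and 90.9% of the Hba-a1 UMIs of control lay in 2 cells. B cell genes, led by Ighm, summed to 59.7 and 74.1, mesenchymal genes, led by Dcn, to 35.7 and 68.2, and endothelial genes, led by Pecam1, to 20.4 and 17.4. The 9 neutrophil genes summed to 220 in GA and 61.0 in control, with Ngp the most abundant and none at 0. Their 4 genes with enough UMIs were all past 2-fold higher in GA, beside 1.06% of all genes, with a median log2 ratio of 1.87. Neutrophil transcripts were unequal in other cells as well. In cells with collagens at 1% of UMIs or more, fewer than 2 Csf1r UMIs and no Ptprc, Lcn2 stood at 23.3 and 4.90 CPM against 32.7 and 6.23 in members.

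Low-Mrc1 cells took a smaller share of the GA library. They were 2.46% of kept cells in GA (exact interval 2.15 to 2.80) and 5.41% in control (4.93 to 5.93), a ratio of 0.454 (0.387 to 0.532). Among all C1q macrophages, which met every limit but that on Mrc1, they were 222 of 539 in GA, or 41.2% (37.0 to 45.5), and 438 of 820 in control, or 53.4% (49.9 to 56.9). That ratio was 0.771 (0.684 to 0.869). Macrophages with 15 or more Mrc1 UMIs were 3.51% of kept GA cells and 4.72% of kept control cells. Ly6c2 monocytes, with at least 5 Ly6c2 UMIs, C1q and Mrc1 under the limits and fewer than 3 UMIs of Mki67 and Top2a, were 2.22% and 2.24%. Both met the other limits of the rule. A share of all cells depends on how many other cells were recovered, and the kept GA cells were shallower, so the smaller share cannot be told apart from differences in recovery.

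Mrc1 showed no gap at the limit of 15 UMIs. Just inside, 63 GA and 98 control cells held 10 to 14 Mrc1 UMIs, and just outside 49 and 93 held 15 to 19. At the C1q limit, 13 GA and 24 control members held 20 to 29 C1q UMIs, while 9 and 21 cells that met the other limits held 10 to 19. The low-Mrc1 cells are therefore one end of a range, and other genes were read along it as a description.

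Cx3cr1, the receptor of the chemokine fractalkine and high in microglia, was at 512 CPM in GA cells without Mrc1 and 491 in control. It was at 143 and 232 in cells with 10 to 14 Mrc1 UMIs and at 77.4 and 123 in those with 40 or more. Cd74, the MHC class II invariant chain, was highest in cells with 1 to 4 Mrc1 UMIs, at 4354 and 3214, and lowest at 40 or more, at 549 and 739. Thus the cells without Mrc1 and those with a little were unlike each other in both libraries. Pf4, a chemokine gene of resident macrophages, went the other way, from 623 and 437 without Mrc1 to 3288 and 2570 at 40 or more. Ccl8, a chemokine that attracts monocytes and lymphocytes, spanned a wider range, from 0.909 and 33.4 without Mrc1 through 195 and 172 at 10 to 14 to 1651 and 953 at 40 or more.

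**Figure D1:**
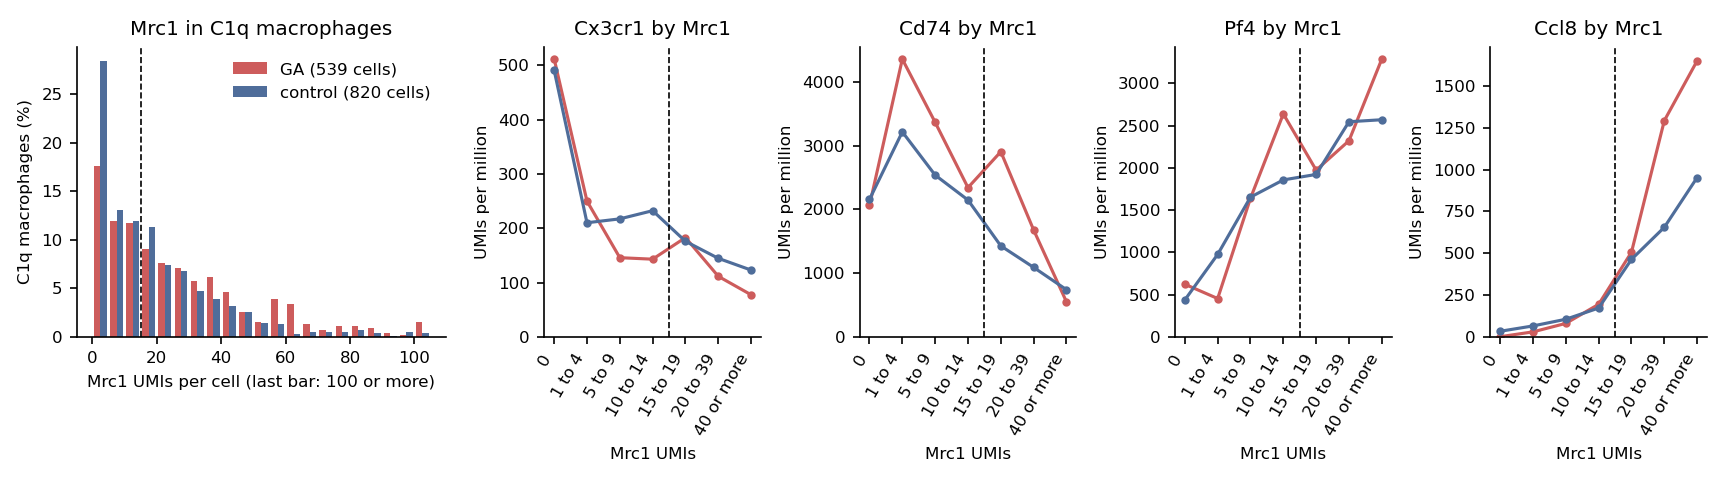
The first panel gives the percent of C1q macrophages of each library in bins of 5 Mrc1 UMIs, and the other panels give CPM of Cx3cr1, Cd74, Pf4 and Ccl8 in the cells of each Mrc1 bin. The dashed line marks the limit of 15 UMIs, at which the Mrc1 bars have no gap, and Ccl8 stands at 1651 in GA and 953 in control in the last bin.

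Against high-Mrc1 C1q macrophages, 31 of 6473 genes were at least 2-fold higher in the low-Mrc1 cells of both libraries (0.479%) and 51 were lower (0.788%). Both sets of cells were cut from one range by Mrc1, so these values describe the cut. Vcam1, the adhesion molecule of marrow macrophages that hold developing red cells, was at 28.7 CPM in low-Mrc1 and 282 in high-Mrc1 cells of GA. In control the values were 24.8 and 242, and the log2 ratio was −3.29 in both. Ccl8 stood at 85.2 against 1352 in GA and 91.3 against 702 in control. The hemoglobin scavenger receptor Cd163 stood at 14.2 against 81.4 and 3.44 against 42.2. Itgad, Cd209f, Ccr3, Fcna, Ednrb and Igfbp4 were also among the 10 genes lowest in low-Mrc1 cells. Of a list for macrophages of brain borders 5 genes could be compared, and 4 of them, Folr2, F13a1, Cbr2 and Cd163, were at least 2-fold lower in both libraries. Pf4 stood at 1453 against 2714 CPM in GA and 1211 against 2420 in control.

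Genes higher in low-Mrc1 cells were fewer. Plxdc2, a transmembrane protein gene, stood at 189 against 30.02 CPM in GA and 190 against 68.9 in control. Serpine2, a serine protease inhibitor, stood at 55.5 against 2.34 and 39.5 against 3.14. Csf1, the ligand of the receptor that Csf1r encodes, stood at 56.3 against 7.30 and 40.3 against 11.2. Nav3, Apoc1, Ldhb, Golm1, Apbb2 and Ass1 completed the list with Cxcl9, an interferon-gamma-induced chemokine whose level rested on single cells. One GA cell held 731 of the 784 Cxcl9 UMIs of the members and 1 control cell held 390 of 456. Of 9 MHC class II genes compared, 4 were at least 2-fold higher than in high-Mrc1 cells in both libraries, beside 0.479% of all genes, and none was lower.

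Ly6c2 monocytes lacked several genes that members expressed, among them Fcrls, a scavenger-like receptor of tissue macrophages. It stood at 238 CPM in GA members and 381 in control members against 0.280 and 2.56 in the monocytes. Cd5l, Gas6, Cadm1, Igf1 and the iron exporter Slc40a1 were further genes far higher in members, whereas the granule protein genes Prtn3, Elane and Mpo were among the lowest.

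**Figure D2:**
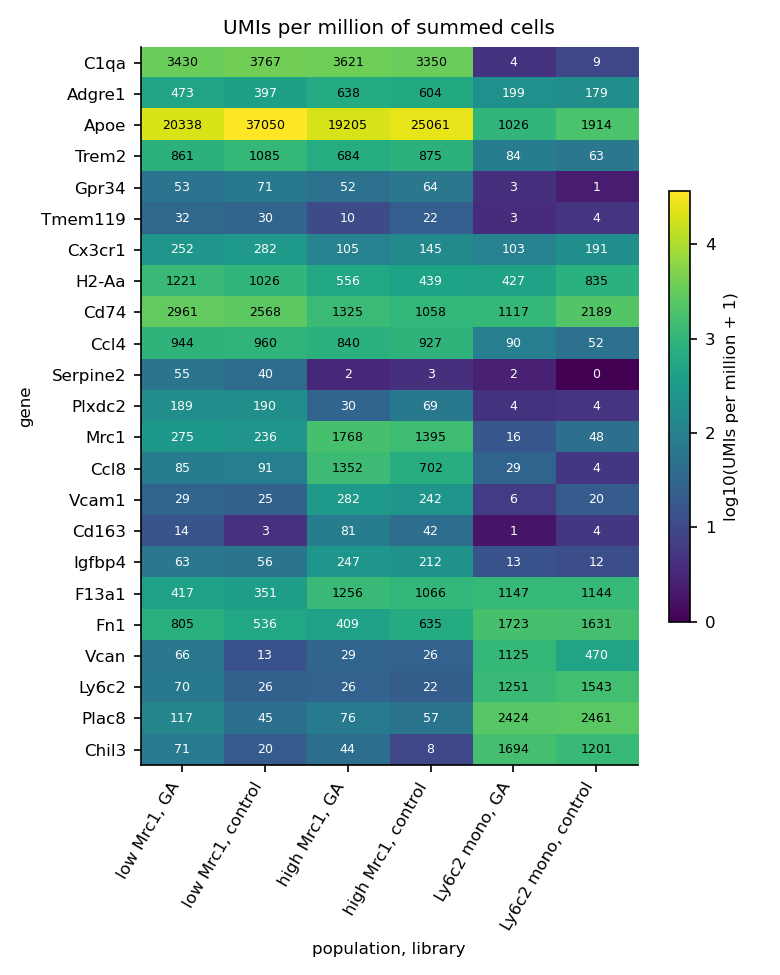
Each cell of the grid gives the CPM of one gene (rows) in the summed cells of one population and library (columns), coloured on a log10 scale. Low-Mrc1 cells share C1qa and Apoe with high-Mrc1 cells, with Vcam1 at 28.7 and 24.8 against 282 and 242 and Cd74 at 2961 and 2568 against 1325 and 1058.

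The members were not uniform. Each of 8 small gene sets, with limits and companion genes chosen after their values had been seen, picked out a subset, and 58 GA members (26.1%) and 105 control members (24.0%) fell in none. What separates a subset in its own genes is fixed by its limit, so only other genes are given for it.

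One subset carried microglial genes. Cells with at least 10 UMIs of Tmem119, P2ry12, Sall1, Gpr34 and Olfml3 together were 26 GA members, or 11.7%, and 69 control members, or 15.8%. Outside the limiting genes, Cx3cr1 stood at 776 CPM in these cells against 154 in the other GA members, and at 803 against 174 in control. Sparc, a secreted matrix protein, stood at 959 against 48.5 and 925 against 97.9. Serpine2 was far higher in them, at 311 against 7.57 in GA and 184 against 9.59 in control. Cd74 was low in them, at 166 against 3485 and 315 against 3034. The ratio of their shares, GA over control, was 0.743 with an interval of 0.488 to 1.13, which holds 1.

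A separate subset carried MHC class II. Cells with at least 200 UMIs of H2-Aa, H2-Ab1, H2-Eb1 and Cd74 were 49 GA members (22.1%) and 74 control members (16.9%), a ratio of 1.31 (0.946 to 1.80). The subset shared 0 cells with the microglial subset in GA and 2 in control. Ccr2, the receptor with which monocytes leave the marrow, stood at 634 CPM in MHC class II cells against 161 in other GA members, and at 419 against 107 in control. Il1b stood at 1500 against 512 and 1768 against 569. Apoe was lower in them, at 6911 against 23737 in GA and 22323 against 39953 in control.

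Gpnmb marked a further subset, and its share differed between libraries. Gpnmb (ENSMUSG00000029816, chr6:49036546-49070929) encodes a transmembrane glycoprotein of lipid-laden and phagocytic macrophages. At least 20 Gpnmb UMIs were found in 25 GA members, or 11.3% (7.42 to 16.2), and in 120 control members, or 27.4% (23.3 to 31.8). The ratio was 0.411 (0.276 to 0.613). Gpnmb cells held more Apoe, with 41644 CPM against 16710 in other GA members and 53293 against 28572 in control. Fabp5, a fatty acid carrier, stood at 1652 against 738 and 2836 against 837, and Ctsd at 8336 against 3956 and 7330 against 3991. Cd74 was low in them, at 480.5 against 3383 and 698 against 3544.

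Monocyte genes marked the subset with the largest ratio. At least 20 UMIs of Ly6c2, Ccr2, Plac8 and Vcan together were found in 45 GA members, or 20.3% (15.2 to 26.2), and in 27 control members, or 6.16% (4.10 to 8.84), a ratio of 3.29 (2.10 to 5.15). These cells held Fn1, which encodes fibronectin, at 1675 CPM against 557 in GA and 1246 against 481 in control. Apoe was lower in them, at 6968 against 24150 and 9363 against 39195. Of these cells, 20 in GA and 13 in control also met the MHC class II limit. Cells with more of 2 border macrophage genes likewise took a larger share of GA members. Folr2, a folate receptor, and Cbr2, a carbonyl reductase, reached 10 UMIs together in 22.5% of GA and 11.9% of control members, a ratio of 1.90 (1.33 to 2.70). These were the 2 tested genes of the border list past 2-fold higher in GA members, so their choice favoured this ratio. F13a1 and Pf4, which were not used, had log2 ratios of 0.25 and 0.26, so the share does not speak for the whole list. Cells past this limit held Hmox1 at 2928 against 843 and 3860 against 1075 CPM.

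The remaining subsets had shares whose ratios held 1 within their intervals. Dividing cells, with at least 3 UMIs of Mki67 and Top2a, were 9.46% of GA and 8.90% of control members. Il1b cells, with at least 30 UMIs of this inflammatory cytokine, were 12.6% and 15.1%. Ptgs2, which encodes the prostaglandin synthase COX-2, was high in them, at 917 against 103 CPM in GA and 1235 against 209 in control. Hmox1 cells, with at least 60 UMIs of the gene for heme oxygenase 1, were 10.8% and 11.6%. They held the glutathione synthesis gene Gclm at 1113 against 61.5 and 784 against 68.7, the antioxidant gene Prdx1 at 8775 against 1039 and 5838 against 1011, and the scavenger receptor Cd36 at 1841 against 442 and 1534 against 247.

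**Figure D3:**
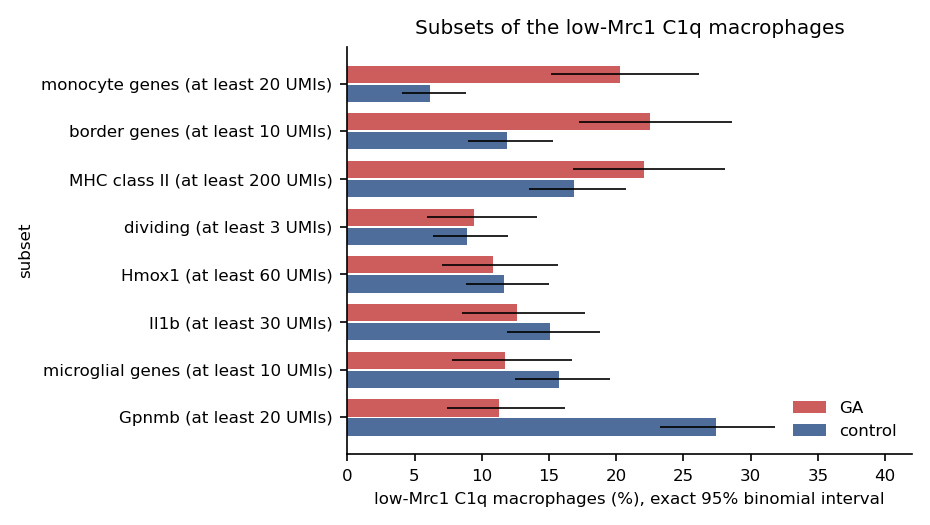
Bars give the percent of low-Mrc1 members of each library that reached the stated UMI limit for each gene set, with exact 95% binomial intervals. Monocyte genes reached 20.3% in GA and 6.16% in control, Gpnmb 11.3% and 27.4%, and the intervals of the libraries overlap for MHC class II, dividing, Hmox1, Il1b and microglial genes.

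GA and control members were then compared over all genes, with UMIs summed over the cells of each library. Of 6727 genes with at least 200 UMIs that the rule did not use, 71 were at least 2-fold higher in GA (1.06%) and 38 at least 2-fold lower (0.565%). These counts were 23 and 9 with each cell thinned to 5000 UMIs, and 192 and 141 with a minimum of 50 UMIs. The median log2 ratio of all these genes was 0.07. Among high-Mrc1 macrophages 1.02% of genes were higher and 0.426% lower by the same measure, and among Ly6c2 monocytes 0.387% and 0.569%.

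Several of the most extreme ratios came from 1 or 2 cells. One GA member with 71040 UMIs held 27758 of the 27843 UMIs of Igkc, an immunoglobulin light chain, 8478 of 8500 of Igha and 2473 of 2477 of Jchain, all genes of plasma cells. One control cell held 223 of 268 UMIs of Col4a1 and 166 of 227 of Igfbp7, both vessel-associated genes, and 504 of 515 of the pericyte gene Rgs5 were also in 1 cell. Jchain and Rgs5 are named here after their values were seen. Hbb-bs, a beta globin of red cells, had 87.9% of its 1067 control UMIs in 2 cells. One GA cell held 408 of 412 UMIs of the scavenger receptor Marco, and 1 held 89 of 175 UMIs of Hdc, the histamine-forming enzyme. When the cell with the most UMIs of each gene was left out of each library, 61 of the 71 higher and 37 of the 38 lower genes were still past 2-fold. The minimum of UMIs per gene was not applied again to what was left. Igkc, Igha and Col4a1 were among these genes on fewer UMIs than that minimum.

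Other genes with low ratios did not rest on 1 cell. Gdf15 (ENSMUSG00000038508, chr8:70629393-70632456) encodes a stress-induced hormone of the TGF-beta superfamily. It stood at 169 CPM in GA and 601 in control, a log2 ratio of −1.83 (−1.94 to −1.73). It was detected in 41.0% of GA and 55.9% of control members, and in 6.17% and 10.6% of the collagen cells described above, whose median depths were 46525.5 and 48974 UMIs. The log2 ratio was −1.54 within the Gpnmb subset and −1.52 in the other members. Within the 8 subsets it ran from −4.09 in Il1b cells, with −1.63 outside them, to −1.21 in Hmox1 cells.

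Hspa1a (ENSMUSG00000091971, chr17:34969190-34972156) and its near-identical neighbour Hspa1b encode inducible HSP70 chaperones. Hspa1a stood at 93.5 CPM in GA and 395 in control, a log2 ratio of −2.08 (−2.23 to −1.94), and Hspa1b at 56.3 and 210, a ratio of −1.89. A Hspa1a UMI was found in 38.3% of GA and 41.8% of control members, so the levels differed more than the detection did. In the monocyte gene subset its ratio was on the other side, at 1.12 (0.36 to 2.03), while in the other members it was −2.02. How reads shared by the pair were assigned to each gene is uncertain. Tissue digestion is known to induce these genes and the immediate early genes, and in collagen cells Hspa1a stood at 182 and 252. Fos, another gene of that response, was on the other side, at 1609 in GA and 927 in control members, and Dusp1 stood at 930 and 553. The immediate early list held 16 genes, counting these 2 chaperones, which were the only ones past 2-fold. Of all genes, 0.565% were this much lower. In the list 13 genes had ratios above 0, and Jun was the only other gene below, at 321 and 411. The part of cell handling in these values was not tested.

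Gpnmb was the lipid and lysosome gene with the lowest ratio. It stood at 353 CPM in GA and 970 in control, a log2 ratio of −1.46 (−1.54 to −1.38). The median member held 0 Gpnmb UMIs in GA and 2.5 in control, with upper quartiles of 7 and 23.75 and maxima of 107 and 729. Among the members its log2 ratio was −0.26 (−0.61 to 0.10) in the monocyte gene subset and −1.33 outside it. In high-Mrc1 macrophages the Gpnmb ratio was −1.17. Ly6c2 monocytes held only 168 Gpnmb UMIs in GA and 18 in control, fewer than the minimum of 200 UMIs for counted genes, and the ratio there was 2.58 (1.91 to 3.40). Apoe stood at 20338 and 37050, a ratio of −0.87 (−0.88 to −0.85), and Fabp5 at 871 and 1523. The Fabp5 ratio was on the other side in the monocyte gene subset, at 0.50 (0.29 to 0.71), and −0.18 outside the Gpnmb subset. Not all of the list was lower in GA. Lpl, the lipoprotein lipase gene, stood at 530 in GA and 294 in control, and the galectin gene Lgals3 at 3248 and 2798. Of the 18 genes 1 was past 2-fold (Gpnmb, lower), beside 0.565% of all genes. All genes had a median log2 ratio of 0.07 and a lower quartile of −0.11. The median of the 18 was −0.17, or -0.0057 with each cell thinned to 5000 UMIs.

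On the higher side, Ly6a (ENSMUSG00000075602, chr15:74994877-74998031), a surface protein gene that interferons induce in many cells, stood at 203 CPM in GA and 52.2 in control. Its log2 ratio was 1.96 (1.80 to 2.12), and it was 1.71 in high-Mrc1 macrophages and 0.29 (−0.08 to 0.67) in Ly6c2 monocytes. Tppp3, a tubulin-binding protein gene, stood at 175 and 49.2, a ratio of 1.83 (1.67 to 2.00). Outside the low-Mrc1 cells Tppp3 had ratios of 0.54 and −0.37 (−0.77 to 0.04) in the same order. Collagen cells held far more Ly6a than members, at 1128 CPM in GA and 574 in control, so it was no marker of the members. They held Tppp3 at 116 and 79.1. Among the members, Ly6a and Tppp3 were both higher in those with monocyte genes. The Ly6a ratio was 0.53 (0.28 to 0.80) within that subset and 2.08 (1.88 to 2.29) outside it, and in the microglial subset it was −0.42 (−1.37 to 0.39). Lcn2, Retnlg, Vcan, Slc28a2, Ltb4r1 and Slfn4 were further genes in the 12 highest, with log2 ratios between 1.85 and 2.39. Lcn2 and Retnlg are neutrophil genes, and in collagen cells Retnlg stood at 38.6 in GA and 9.15 in control. With the profile of all kept cells of each library subtracted, the Lcn2 ratio was 0.99.

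**Figure D4:**
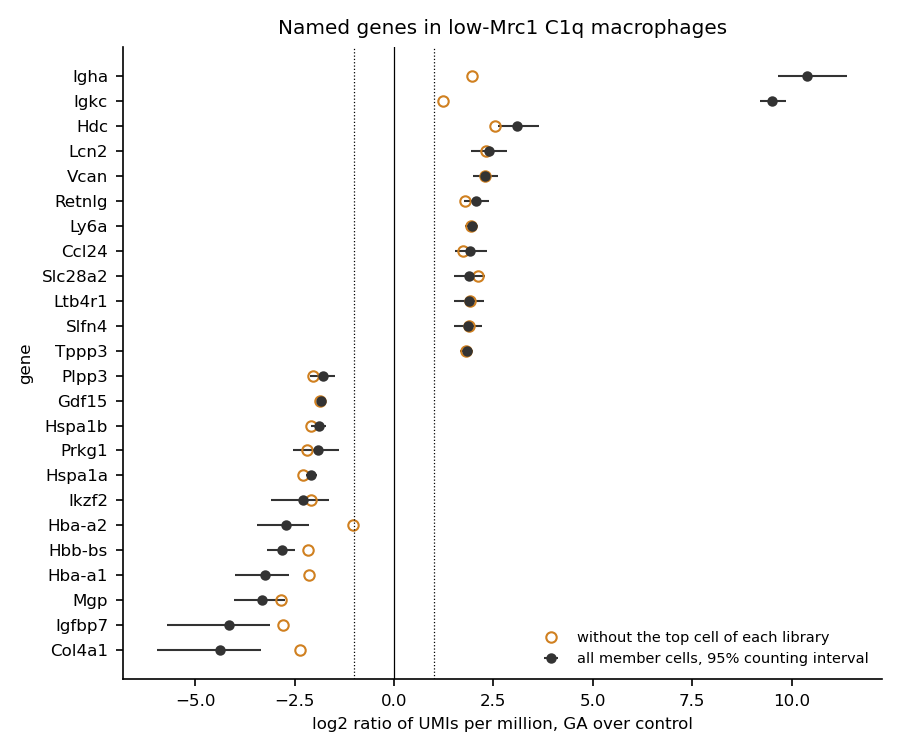
Filled points give the log2 ratio of CPM, GA over control, for the 12 highest and 12 lowest genes with 95% counting intervals, and open circles give the ratio without the cell of each library that held the most UMIs of the gene. The open circle of Igkc moves from 9.51 to 1.22, while Ly6a at 1.96, Tppp3 at 1.83 and Gdf15 at −1.83 stay near the filled point.

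Interferon response genes had the highest median ratio of GA over control among the 23 programme lists. Type I interferons act through a receptor that activates transcription factors, which bind interferon-stimulated response elements in promoters and switch on antiviral genes. Of 16 list genes with at least 200 UMIs, 5 were past 2-fold, against the 1.06% of all genes that were this much higher. The median log2 ratio of the 16 was 0.89, against 0.07 for all genes.

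Of the factors and regulators, Irf7, the amplifier of type I interferon production, stood at 251 CPM in GA and 99.0 in control. Its log2 ratio was 1.34 (1.21 to 1.47), and it was found in 75.7% of GA and 58.9% of control members, against 54.7% and 37.0% of the deeper collagen cells. Usp18, which restrains the receptor, stood at 37.2 and 12.9, a ratio of 1.53 (1.19 to 1.88). Stat2, which carries the signal of the receptor, stood at 37.4 and 30.6, so it lay closer between libraries than Irf7 and Usp18.

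Among the effectors, Isg15, a ubiquitin-like modifier, stood at 173 CPM in GA and 81.2 in control, a log2 ratio of 1.09 (0.95 to 1.24). Ifit1, which binds viral RNA caps, stood at 67.4 and 26.1, a ratio of 1.37 (1.12 to 1.62). Zbp1, a nucleic acid sensor, stood at 111 and 54.0. Isg15 was found in 58.6% of GA and 45.2% of control members, against 66.8% and 55.7% of collagen cells, so it was no marker of the members. Ifi27l2a and Ifitm3 were the most abundant of the list, with 1736 and 911 for the former and 1223 and 678 for the latter. Cxcl10, a chemokine that draws T cells, stood at 165 and 171 and had the lowest ratio, −0.05 (−0.18 to 0.07). The interval of the GTPase gene Gbp2 held 0 as well.

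The same list leaned toward GA in high-Mrc1 macrophages and toward control in Ly6c2 monocytes. Its median log2 ratio was 1.13 in the former but −0.70 over 12 genes in the monocytes. The medians of all genes were 0.05 and 0.0049 in the same order. Collagen cells held Isg15 at 226 CPM in GA and 87.0 in control, and Irf7 at 72.9 and 21.7. Both libraries thus differed in these transcripts in cells outside the macrophages too. Within the members, the Isg15 ratio was 0.21 (−0.17 to 0.58) in the microglial subset and 1.27 in the others. It was 2.22 in the Gpnmb subset and 0.74 outside it, and 0.64 in the monocyte gene subset and 0.92 outside it. Ifi27l2a, the most abundant of the list, was at −0.10 (−0.20 to −0.01) in the monocyte gene subset, and Ifitm3 was at 0.13 there. Irf7 had ratios of 0.55, 1.52 and 0.82 in these 3 subsets and 1.41, 1.24 and 1.26 outside them.

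**Figure D5:**
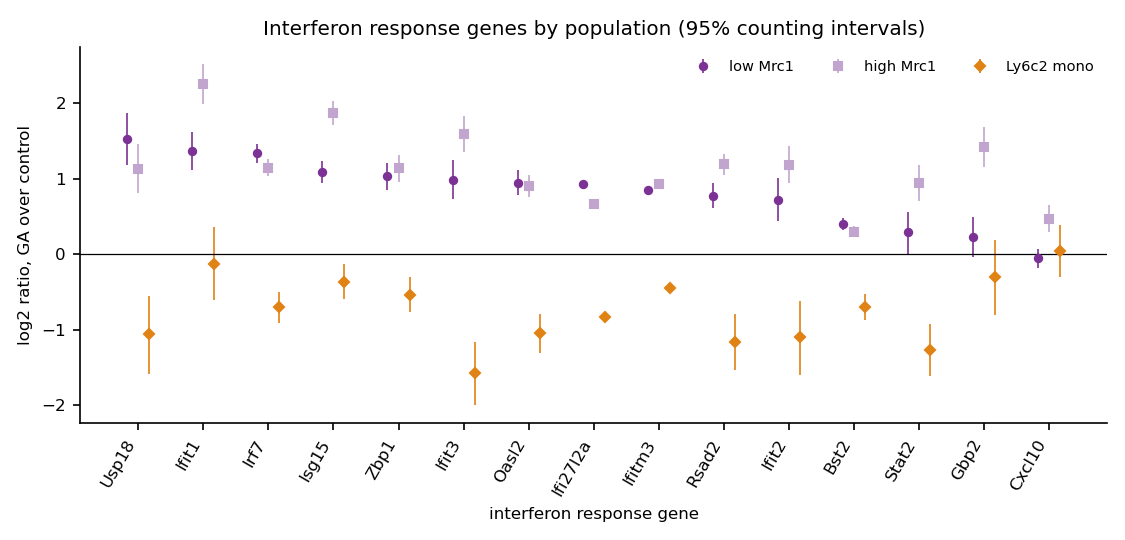
Points give the log2 ratio, GA over control, of interferon response genes in low-Mrc1 cells, high-Mrc1 cells and Ly6c2 monocytes, with 95% counting intervals. In low-Mrc1 cells the points run from 1.53 (Usp18) to −0.05 (Cxcl10), while those of the Ly6c2 monocytes lie near or below 0.

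The promoters of several of these genes hold the core of the interferon-stimulated response element. The motif GAAANNGAAA was searched on both strands in the 250 bases before the start of each gene in RefSeq (GRCm38.p6), overlapping matches included. It was found in 978 of 32851 promoters (2.98%), and in 9 of the 14 list genes that had an entry. The 4 stretches below are shown because they let the motif be seen in genes whose levels are given here; each runs from 160 to 51 bases before the start, 5′ to 3′ on the gene's strand, with the motif in capitals. On the opposite strand the motif reads TTTCNNTTTC, and in Isg15 its 3 copies overlap. A match describes these letters and does not show that a factor was bound.
Isg15, chr4:156200869-156200978, minus strand: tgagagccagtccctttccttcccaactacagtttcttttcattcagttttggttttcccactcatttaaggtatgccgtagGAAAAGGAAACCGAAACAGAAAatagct
Ifit1, chr19:34640729-34640838, plus strand: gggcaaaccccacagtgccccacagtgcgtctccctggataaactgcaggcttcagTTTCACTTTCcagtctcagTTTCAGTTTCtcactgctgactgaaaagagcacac
Ifit3, chr19:34583369-34583478, plus strand: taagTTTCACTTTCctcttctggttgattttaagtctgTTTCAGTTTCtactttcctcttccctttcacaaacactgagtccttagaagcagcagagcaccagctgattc
Rsad2, chr12:26456503-26456612, minus strand: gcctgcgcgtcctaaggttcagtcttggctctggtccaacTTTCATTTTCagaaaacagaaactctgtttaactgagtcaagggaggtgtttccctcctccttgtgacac

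Ifit3 stood at 53.6 CPM in GA members and 27.0 in control, a log2 ratio of 0.99 (0.73 to 1.25), and Rsad2, the antiviral enzyme viperin, at 119 and 69.6, a ratio of 0.77 (0.61 to 0.94). Irf7, Ifitm3 and Oasl2 were higher in GA without the motif in their upstream bases, so the presence of these letters did not separate the genes by their ratio.

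MHC class II genes differed little between libraries despite their wide spread among cells. Cd74 stood at 2961 CPM in GA and 2568 in control, a log2 ratio of 0.21 (0.18 to 0.24). H2-Aa stood at 1221 and 1026 and H2-Ab1 at 1110 and 949.5. None of 9 genes tested was past 2-fold, and the median ratio was 0.17, or 0.33 with each cell thinned to 5000 UMIs.

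Among the chemokines, 2 abundant genes were higher in GA members. Ccl6 stood at 785 CPM in GA and 383 in control, a log2 ratio of 1.04 (0.97 to 1.10), and Ccl9 at 802 and 370, a ratio of 1.12 (1.05 to 1.18). The Ccl6 ratio was −0.12 (−0.54 to 0.28) in the microglial subset and 0.15 (0.01 to 0.30) in the monocyte gene subset, while Ccl9 had 0.84 and 0.80 there. Both are chemokines of the CC family made by myeloid cells and act through Ccr1. Ccl24, an eosinophil attractant, stood at 32.3 and 8.48 and was found in only 28 GA and 31 control members. The most abundant chemokine of the list, the neutrophil attractant Cxcl2, stood at 3152 and 3418. Ccl3 and Ccl4, which draw monocytes and T cells, differed by less than 0.1 on the log2 scale, while Cxcl1, another neutrophil attractant, stood at 176 and 341. Of 21 genes, 4 were past 2-fold higher (Ccl24, Ccl6, Ccl9 and Cxcl9, the last resting on single cells), beside 1.06% of all genes, and none lower, and the median ratio was 0.05, or −0.08 without the top cell of each gene.

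A list of inflammatory cytokines, their inhibitors and related genes had a median somewhat lower in GA, with none of them past 2-fold. The median log2 ratio of 12 genes was −0.36 (−0.23 with the limits in CPM), against a lower quartile of −0.11 for all genes. Tnf stood at 159 CPM in GA and 230.2 in control, the inflammasome sensor Nlrp3 at 218 and 339, and Ptgs2 at 217 and 374. Il1b itself stood at 712 and 766, and the anti-inflammatory cytokine Il10 at 150.5 and 222. Among complement genes other than C1q, 1 of 12 was past 2-fold higher, beside the 1.06% of all genes. This was Cfb, factor B of the alternative pathway, at 72.9 in GA and 20.8 in control, a ratio of 1.81 (1.55 to 2.07), whereas C3 stood at 51.9 and 53.5.

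Markers of 3 related cell types were read beside these results. Monocyte genes were higher in GA members, with 4 of 5 genes past 2-fold, beside 1.06% of all genes, and a median log2 ratio of 1.46. Ly6c2 stood at 70.1 CPM against 25.6, and Ccr2 at 256 against 159. In Ly6c2 monocytes themselves the median ratio of these genes was 0.01. Of 4 border macrophage genes tested, 2 were past 2-fold higher, Folr2 at 189 against 92.6 and Cbr2 at 173 against 75.3, and the median was 0.65. Of 5 microglial genes tested none was past 2-fold and the median was −0.04, or −0.34 with each cell thinned to 5000 UMIs, with Tmem119 at 32.3 and 30.4 and P2ry12 at 47.2 and 47.8. The part of these mixtures in the other ratios was not tested beyond the values within subsets given above.

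Cell cycle genes had a higher median ratio than all genes, and so had those of glycolysis and hypoxia. The 10 cell cycle genes tested had a median log2 ratio of 0.67 (0.24 with Mrc1 under 10), against quartiles of −0.11 and 0.24 for all genes. Their lowest ratio was 0.18 and none was past 2-fold, and the share of dividing cells was alike. Mki67 stood at 57.6 CPM in GA and 51.0 in control. Of 14 glycolysis and hypoxia genes none was past 2-fold, beside 1.06% of all genes higher and 0.565% lower. Their log2 ratios ran from −0.59 to 0.74. The glycolytic enzyme genes Pfkp, Aldoa, Tpi1, Gapdh, Pgk1, Eno1, Pkm and Ldha were all higher in GA, with log2 ratios from 0.34 to 0.74. Gapdh and Eno1 stood at 1362 and 929 and at 328 and 197. Hk2, which encodes a hexokinase, was lower at 151 and 221, as were Slc2a1, Ndrg1, Ero1l and Vegfa. The median of the 14 was 0.37. Growth factor genes had a median of −0.19, or 0.09 with each cell thinned to 5000 UMIs, with the osteopontin gene Spp1 at 3248 and 3613 and Vegfa at 133 and 200.4. Igf1, which supports bone formation, stood at 236 and 316.

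Transcripts of hedgehog signalling were few. The hedgehog target Gli1 had 0 UMIs in 222 GA members, which allows a share of cells with a UMI of up to 1.35%, and 0 in 438 control members, which allows up to 0.685%. The hedgehog receptor Ptch1 had 8 UMIs in GA and 22 in control. Ramp1, a subunit of the receptor for the sensory nerve peptide CGRP, stood at 31.5 CPM in GA and 41.3 in control members. In collagen cells it stood at 27.8 and 9.88 CPM, so in GA the levels were close. A Ramp1 UMI was found in 33.8% of GA and 45.4% of control members, against 17.5% and 13.4% of the deeper collagen cells. Its partner Calcrl was found in 25.7% and 17.4% of members and in 30.4% and 25.4% of collagen cells. It stood at 17.0 and 12.7 CPM in members and at 19.7 and 15.5 in collagen cells. Whether collagen cells express Calcrl themselves was not tested, so they are no measure of background for it.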

How the data were processed

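Cells of the microdissected defect region were released by sequential collagenase digestion and profiled with 10x Genomics Chromium. The authors deposited, for each library, a matrix of UMI counts per gene and barcode made with Cell Ranger against mm10; these counts are not normalized. Members of the 2 libraries (1 GA, 1 control) were selected by the limits given above, with 0 per-sample columns left unused. UMIs were summed over cells and expressed per 1000000 UMIs (CPM), and log2 ratios used 0.5 added UMIs. Genes needed 200 UMIs over both libraries, and past 2-fold means a log2 ratio of at least 1 in size. Intervals are 95%: Clopper-Pearson for shares, log-normal for ratios of shares, and exact conditional binomial for log2 ratios. They cover counting error only, and depth per cell is given above. With 1 library per condition no test was run.

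Genes named were the 12 highest and 12 lowest ratios with a UMI in at least 20 members of the higher library, the 10 per direction for each comparison population, the 20 most abundant, and members of 36 gene lists (23 programmes, 13 cell types). Members and lists were chosen with earlier results of these data known. Some genes, a limit of the selection and a population are not reported here. Doublets were not removed; removing the highest Scrublet scores was an alternative. Alternatives covered cell limits, rule limits, thinning to 5000 UMIs, scaling, cell weighting, background subtraction and minimum counts. Simulated counts were used to check the computation. Python 3.11.15, numpy 2.4.6, scipy 1.17.1, pandas 2.3.3, scanpy 1.11.5 and matplotlib 3.10.9 were used.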

Additional observations from a re-analysis of the deposited data

Results flagged for a closer look

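The interferon response list moved one way in low-Mrc1 C1q macrophages and the other way in Ly6c2 monocytes. Its median log2 ratio of GA over control was 0.89 over 16 genes in the former and −0.70 over 12 genes in the latter. The difference between the populations was not tested, since each condition has 1 library.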

How the results depend on the processing

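No paired analysis was possible because each condition has 1 library, and for the same reason no replicate could be left out. Of the 13 alternatives, 12 were planned and leaving out each gene's top cell was chosen after seeing the data. The ratios of the shares of low-Mrc1 cells kept their direction and moved by less than their intervals. So did those of 6 of the 8 subsets under 8 alternatives chosen after seeing the data, Gpnmb from 0.307 to 0.412, monocyte genes from 3.02 to 4.47 and border genes from 1.89 to 2.40, while the Il1b and Hmox1 ratios crossed 1. Of 31 list medians 17 kept their sign and 14, all of 0.32 or less in size, did not. Among those given in the text, the growth factor median ran from −0.26 to 0.09, chemokines from −0.08 to 0.20, microglia from −0.34 to 0.0048, Toll-like receptors from −0.48 to 0.01, cytokine receptors from −0.18 to 0.05, macrophage transcription factors from −0.13 to 0.02 and NRF2 targets from −0.22 to 0.11. The share of kept cells in GA and control was 2.87% and 6.6% among cells with at least 5000 UMIs, 1.95% and 4.37% with limits in CPM, 1.76% and 4.20% with Mrc1 under 10, and 2.15% and 4.87% with C1q of at least 40. The share of C1q macrophages was 32.5% and 43.2% with limits in CPM, and 29.5% and 41.5% with Mrc1 under 10. After thinning to 5000 UMIs, 23 genes were past 2-fold higher in GA and 9 lower, and with a minimum of 50 UMIs 192 and 141. After thinning, 14 genes were higher and 23 lower than in high-Mrc1 cells, and 171 and 128 than in Ly6c2 monocytes. The MHC class II median was 0.26 with Mrc1 under 10, 0.30 with C1q of at least 40, 0.33 thinned and 0.33 as a mean over cells. The lipid and lysosome median was −0.24 with doublets removed, −0.26 with limits in CPM, −0.23 with Mrc1 under 10, −0.24 centred on the median gene and -0.0057 thinned. The interferon median was 0.70 thinned, the microglia median −0.34 thinned, and the monocyte median 1.73 as a mean over cells and 1.78 without top cells. Of the 24 genes with the most extreme ratios, 23 were past 2-fold in all 13 alternatives. Lcn2 was at 0.99 with the background profile subtracted. The count of 23 includes ratios on fewer UMIs than the minimum for counted genes. Without their top cells Igkc was at 1.22 and Igha at 1.95, and both were under that minimum, as was Col4a1. For genes held mostly by 1 cell the count therefore does not show that the ratio holds in the other cells. Why these values moved was not tested. A single library of 5 pooled mice per condition limits what counts can show: depth narrows the counting intervals but not the unknown spread between mice.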

Other observations

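Some eicosanoid and stress genes not named above also differed between libraries. Hpgd, which inactivates prostaglandins, stood at 22.1 CPM in GA members and 50.3 in control, a log2 ratio of −1.18 (−1.51 to −0.88), and 1 of 11 prostaglandin and leukotriene genes, this one, was past 2-fold, beside 0.565% of all genes that were this much lower. Hpgds, a prostaglandin D synthase, stood at 112 and 204, while Alox5ap, the helper of leukotriene synthesis, was on the other side at 630 and 420.0. Slc7a11, the cystine importer among the NRF2 targets, stood at 172 and 336, a ratio of −0.96 (−1.08 to −0.85), although the median of 11 NRF2 targets was −0.08, or 0.11 as a mean over cells. Ccrl2, a chemerin-binding receptor in none of the lists, stood at 202 and 467, a ratio of −1.21 (−1.31 to −1.11); it was named after its value was seen. Toll-like receptor genes had a median of −0.14 over 9 genes, cytokine receptor genes −0.11 over 16, and macrophage transcription factors −0.02 over 19, with none of these past 2-fold and the sign of each median changing under at least 1 alternative.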
